A study of Mus musculus with 12 samples.

Results

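The secretases are the proteases that cut membrane proteins such as the amyloid precursor protein, and 8 of their genes were followed: the beta-secretase genes Bace2 and Bace1, the alpha-secretase genes Adam10 and Adam17, and the gamma-secretase genes Psen2, Ncstn, Aph1a and Psenen. They are 8 of the 17097 genes that the array's annotation names. Every probe set whose only annotated symbol was one of them was taken, which gave 19 of the 45141 probe sets on the array. Bace2, Bace1, Adam10, Adam17 and Aph1a have 3 probe sets each, Ncstn has 2, and Psen2 and Psenen have 1 each. All 19 passed the filter on low levels, a mean log2 level of 3.29 over the 12 arrays.

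Pancreatic islets were taken from mice aged 12 weeks on standard chow, with 3 arrays per genotype. The hIAPP-TgxBACE2-KO mice had a human islet amyloid polypeptide transgene and lacked BACE2, the BACE2-KO mice lacked BACE2 alone, the hIAPP-Tg mice carried the transgene alone, and the wild type (WT) mice carried neither change. The labels give the strain B6;129P2-Bace2tm1Bdes/J for all 4 genotypes, WT included, and the promoter of the transgene is not given in the sources used here. Each label speaks of a mouse, but whether islets of several mice were pooled is not stated, so each p-value speaks only of the spread among these arrays.

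Beta- and alpha-secretases release the outer part of a membrane protein, and gamma-secretase then cuts the remaining stub within the membrane. BACE2 is an aspartyl protease of pancreatic beta cells that sheds membrane proteins there, and BACE1 is its relative best known from neurons. Gamma-secretase is a complex of a presenilin, nicastrin, an APH-1 protein and the presenilin enhancer PEN-2.

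The arrays carried the RNA of islets: Ins2, the insulin gene, lay between 13.93 and 14.03 on the log2 scale, Gcg, the glucagon gene, between 13.05 and 13.22, and Sst, the somatostatin gene, between 12.14 and 12.87. RNA of the exocrine tissue around islets was present in every array and varied, since the mean log2 level of 10 measured acinar markers ran from 8.99 to 11.63. The mean of 12 measured beta cell markers was 9.95, 10.16 and 10.26 in hIAPP-TgxBACE2-KO, 10.27, 10.35 and 10.35 in BACE2-KO, 9.64, 10.06 and 10.31 in hIAPP-Tg, and 10.34, 10.22 and 10.39 in WT arrays. The first hIAPP-Tg array was the lowest of the 12 in these markers. In such bulk RNA fewer cells of a type and less RNA per cell cannot be told apart.

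No secretase probe set passed the test in any of 8 comparisons, and the targeted gene Bace2 kept most of its signal in islets lacking BACE2. Over the 19 probe sets the fitted differences in log2 level lay between -0.47 and 0.39, and the median size of a difference was 0.045 for BACE2 loss averaged over both transgene states, against 0.085 over all probe sets tested. For the transgene averaged over BACE2 status it was 0.09, against 0.0817 over all. The members were not matched to all probe sets for spread within genotypes, so these medians do not show a weaker or stronger response. The comparisons ask what BACE2 loss, the human amyloid transgene, and both together do to the transcripts of the enzymes themselves.

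Bace2 was read first, since it is the targeted gene. Its probe set 1416673_PM_at had log2 levels of 10.65, 10.95 and 10.94 in hIAPP-TgxBACE2-KO, 10.85, 11.0 and 10.97 in BACE2-KO, 10.89, 11.03 and 11.09 in hIAPP-Tg, and 11.18, 10.91 and 11.18 in WT arrays. The group means came in that order from low to high (10.85 ± 0.17, 10.94 ± 0.08, 11.00 ± 0.10 and 11.09 ± 0.16, SD, n = 3 each), and neighbours in the order differed by less than the SD of at least 1 of them. The arrays lacking BACE2 overlapped with the arrays that have it.

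The probe set 1442870_PM_at had log2 levels of 7.66, 7.78 and 7.77 in hIAPP-TgxBACE2-KO, 7.82, 8.0 and 7.96 in BACE2-KO, 7.80, 8.04 and 8.18 in hIAPP-Tg, and 8.23, 7.95 and 8.14 in WT arrays. Its genotype means had the same order, and all hIAPP-TgxBACE2-KO arrays lay below all arrays of the other genotypes. Against a single other genotype, 9.17% to 13.2% of all probe sets separated the hIAPP-TgxBACE2-KO arrays in either direction. The share of probe sets separating them from all other genotypes together was not counted. The probe set 1435581_PM_at had log2 levels of 7.62, 7.59 and 7.51 in hIAPP-TgxBACE2-KO, 7.77, 7.76 and 7.79 in BACE2-KO, 7.43, 7.78 and 7.74 in hIAPP-Tg, and 7.89, 7.44 and 7.88 in WT arrays. Here BACE2-KO had the highest mean and the arrays with BACE2 spanned the whole range.

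**Figure D1:**
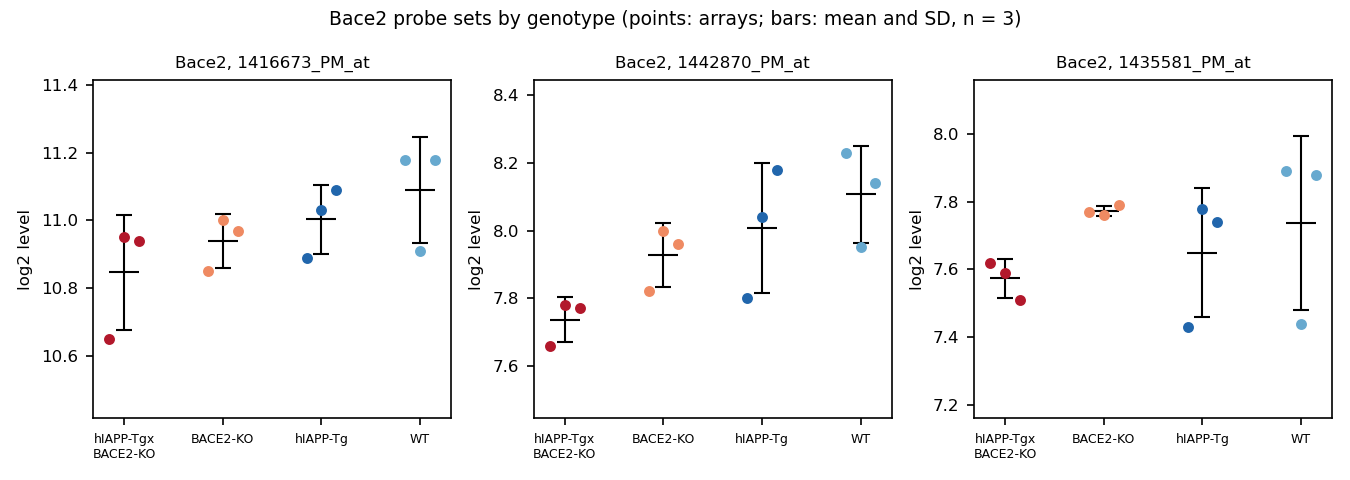
Log2 level (vertical axis, of equal span in each panel) of the 3 Bace2 probe sets by genotype, with 1 point per array and bars for the mean and SD of 3 arrays. The hIAPP-TgxBACE2-KO arrays lie lowest on 1442870_PM_at, between 7.66 and 7.78, and no panel shows a loss of the signal in either genotype lacking BACE2.

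Averaged over both transgene states, islets lacking BACE2 differed from islets with BACE2 by -0.15 in log2 level on 1416673_PM_at (SE 0.07, limma adjusted p = 0.48), by -0.23 on 1442870_PM_at (SE 0.08, limma adjusted p = 0.325) and by -0.02 on 1435581_PM_at (SE 0.09, limma adjusted p = 0.966). On the linear scale the signal in islets lacking BACE2 was 0.899 times that with BACE2 for 1416673_PM_at (95% interval 0.809 to 0.999), 0.856 times for 1442870_PM_at (0.759 to 0.964) and 0.986 times for 1435581_PM_at (0.86 to 1.13). The intervals therefore reach down to 0.759 times at the lowest. None of the 3 passed over all probe sets. The exact permutation test of BACE2 status within each transgene state gave p = 0.075, 0.025 and 0.86 (two-sided, 6 against 6 arrays, smallest possible 0.005), in the same order of probe sets. Adjusted over the 3 probe sets, these permutation p-values were 0.113, 0.075 and 0.86, and none passed. Where the probes lie relative to the deleted part of the gene was not analysed here, so these levels do not check the genotype. Every direction for BACE2 loss depends on the genotype labels.

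Both transgene states gave similar values on 1416673_PM_at. Its difference was -0.15 (SE 0.10, limma adjusted p = 0.97) in BACE2-KO against WT and -0.16 (SE 0.10, limma adjusted p = 0.732) in hIAPP-TgxBACE2-KO against hIAPP-Tg. On 1442870_PM_at the differences were -0.18 (SE 0.11, limma adjusted p = 0.958) and -0.27 (SE 0.11, limma adjusted p = 0.56), and on 1435581_PM_at they were 0.04 and -0.08 (SE 0.13 each, limma adjusted p = 0.998 and 0.92), in the same order of comparisons. The interaction ran from -0.11 to -0.01 over the 3 probe sets (limma adjusted p = 0.999 each). In the comparison of both changes with neither, hIAPP-TgxBACE2-KO against WT, 1442870_PM_at differed by -0.37 (SE 0.11, limma adjusted p = 0.42) and 1416673_PM_at by -0.24 (SE 0.10, limma adjusted p = 0.627), the only members with an unadjusted p under 0.05 there.

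Of the 3 pairs of Bace2 probe sets, 1 changed unequally by the permutation test, and that result depended on single arrays. Within each array, 1442870_PM_at minus 1435581_PM_at averaged 0.16 ± 0.09 in the 6 arrays lacking BACE2 and 0.36 ± 0.10 in the 6 arrays with BACE2 (SD), a difference of -0.21 (exact permutation p = 0.01, adjusted p = 0.03 over 3 pairs). This adjusted p became 0.06 without WT replicate 2, hIAPP-Tg replicate 1 or 3, any BACE2-KO replicate or hIAPP-TgxBACE2-KO replicate 1, with the difference between -0.23 and -0.17 over all 12 such fits. The other pairs did not pass: 1416673_PM_at minus 1442870_PM_at differed by 0.07 (exact permutation p = 0.13, adjusted p = 0.13) and 1416673_PM_at minus 1435581_PM_at by -0.13 (exact permutation p = 0.12, adjusted p = 0.13). Across the 12 arrays 1416673_PM_at and 1442870_PM_at followed each other (Pearson r = 0.899, permutation p = 5e-05, adjusted p = 0.0008 over 16 pairs of probe sets; Spearman rho = 0.876, permutation p = 0.00035, adjusted p = 0.0028). Without WT replicate 1 and hIAPP-TgxBACE2-KO replicate 1, the arrays farthest from the median of 1416673_PM_at, r was 0.843, and with genotype means removed it was 0.847.

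Bace1, the other beta-secretase gene, was close to level across the genotypes on its probe set 1421824_PM_at, with log2 levels of 7.50, 7.60 and 7.77 in hIAPP-TgxBACE2-KO, 7.64, 7.72 and 7.64 in BACE2-KO, 7.52, 7.47 and 7.79 in hIAPP-Tg, and 7.68, 7.59 and 7.75 in WT arrays. All 4 groups overlapped. For BACE2 loss averaged over transgene status its difference was 0.01, with a 95% interval from -0.16 to 0.18, so on this probe set a rise beyond 0.18 log2 units lies outside the interval. The probe set 1450384_PM_at had log2 levels of 6.40, 6.32 and 6.62 in hIAPP-TgxBACE2-KO, 6.61, 6.57 and 6.56 in BACE2-KO, 6.47, 6.56 and 6.64 in hIAPP-Tg, and 6.58, 6.49 and 6.75 in WT arrays, again with overlap of all groups, and differed by -0.07 (95% interval -0.25 to 0.11) for BACE2 loss. The interval is wider for the third Bace1 probe set, 1421825_PM_at, which differed by -0.02 (95% interval -0.29 to 0.26).

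The dimmest Bace1 probe set, 1421825_PM_at, had log2 levels of 4.37, 4.22 and 4.51 in hIAPP-TgxBACE2-KO, 4.42, 4.3 and 4.62 in BACE2-KO, 3.90, 4.05 and 4.61 in hIAPP-Tg, and 4.56, 4.77 and 4.64 in WT arrays. It was low in 2 of 3 hIAPP-Tg arrays, while the third lay within the WT range. Its difference was -0.47 in hIAPP-Tg against WT (SE 0.18, limma adjusted p = 0.915) and -0.28 for the transgene averaged over BACE2 status (SE 0.13, limma adjusted p = 0.735). The other Bace1 probe sets differed by -0.06 and -0.09 for the transgene, so the probe sets of this gene gave unlike sizes.

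The alpha-secretase gene Adam10, whose metalloprotease sheds many surface proteins, had log2 levels on 1428103_PM_at of 8.72, 9.03 and 8.67 in hIAPP-TgxBACE2-KO, 8.60, 8.33 and 8.69 in BACE2-KO, 8.97, 8.71 and 8.68 in hIAPP-Tg, and 8.67, 8.75 and 8.42 in WT arrays. The highest array of each genotype with the transgene, at 9.03 and 8.97, lay above all arrays without it, and the ranges overlapped otherwise. The transgene, averaged over BACE2 status, differed by 0.22 (SE 0.09, limma adjusted p = 0.721), and by 0.11 and 0.14 on 1450105_PM_at and 1450104_PM_at. For BACE2 loss the 3 Adam10 probe sets differed by -0.03, 0.01 and -0.08. The 3 probe sets followed each other across arrays, with r from 0.7 to 0.864 (permutation p from 0.00017 to 0.0104, adjusted p from 0.00136 to 0.0416) and rho from 0.562 to 0.923 (permutation p from 6e-05 to 0.0603, adjusted p from 0.00096 to 0.138). Without the 2 arrays farthest from the median r ran from 0.483 to 0.855.

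Adam17, which encodes the tumour necrosis factor converting enzyme, had log2 levels on 1421858_PM_at of 7.51, 7.55 and 7.51 in hIAPP-TgxBACE2-KO, 7.46 in each BACE2-KO array, 7.83, 7.46 and 7.48 in hIAPP-Tg, and 7.71, 7.60 and 7.34 in WT arrays. The spread within hIAPP-Tg (SD 0.21) and WT (SD 0.19) exceeded the gap between any genotype means. The other Adam17 probe sets lay between 6.40 and 6.86 and between 5.48 and 5.92. Unlike those of Adam10, the 3 probe sets did not follow each other, with r from -0.1 to 0.194 (permutation p from 0.555 to 0.997, adjusted p from 0.683 to 0.997) and rho from -0.211 to 0.213 (permutation p from 0.501 to 0.666, adjusted p from 0.624 to 0.761). Without the 2 arrays farthest from the median r ran from -0.251 to 0.117. The difference for BACE2 loss was -0.08, -0.01 and -0.17 from the brightest to the dimmest, and none passed (limma adjusted p from 0.608 to 0.988).

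Psen2, a presenilin that carries the catalytic site of gamma-secretase, had log2 levels of 8.25, 8.22 and 8.34 in hIAPP-TgxBACE2-KO, 7.90, 8.06 and 8.34 in BACE2-KO, 8.04, 8.42 and 8.28 in hIAPP-Tg, and 8.26, 8.22 and 8.44 in WT arrays. The lowest arrays, at 7.90 and 8.04, came from BACE2-KO and hIAPP-Tg, and all groups overlapped. Its difference for BACE2 loss was -0.09 (SE 0.09, limma adjusted p = 0.795).

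Psenen, which encodes PEN-2, varied least of the 19 probe sets, with a pooled SD within genotypes of 0.07. Its log2 levels were 10.64, 10.50 and 10.53 in hIAPP-TgxBACE2-KO, 10.55, 10.53 and 10.52 in BACE2-KO, 10.69, 10.48 and 10.49 in hIAPP-Tg, and 10.44, 10.47 and 10.52 in WT arrays. It differed by 0.03 for BACE2 loss and by 0.05 for the transgene, with 95% intervals from -0.08 to 0.14 and from -0.06 to 0.16.

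Ncstn encodes nicastrin, the substrate-docking subunit. On 1418570_PM_at it had log2 levels of 5.23, 5.55 and 5.76 in hIAPP-TgxBACE2-KO, 5.29, 5.33 and 5.42 in BACE2-KO, 5.45, 5.38 and 5.55 in hIAPP-Tg, and 5.44, 5.45 and 5.58 in WT arrays. All BACE2-KO arrays lay below all WT arrays, by -0.14 on average (limma adjusted p = 0.998), but the hIAPP-TgxBACE2-KO arrays covered the whole range of the others. Between BACE2-KO and WT 12.2% of all probe sets did not overlap, in either direction. The second Ncstn probe set, 1444532_PM_at, had the largest spread of the 19 (pooled SD 0.36, range 3.99 to 5.15) and ran against the first across arrays (r = -0.514, permutation p = 0.0869, adjusted p = 0.154; rho = -0.354, permutation p = 0.257, adjusted p = 0.411). This r was -0.332 without hIAPP-TgxBACE2-KO replicates 1 and 3.

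Aph1a encodes a scaffold subunit, and the suffix _s_at of its brightest probe set marks one that can match several transcripts. On 1424980_PM_s_at it had log2 levels of 8.64, 8.84 and 8.87 in hIAPP-TgxBACE2-KO, 8.64, 8.69 and 8.78 in BACE2-KO, 8.47, 8.72 and 8.95 in hIAPP-Tg, and 8.67, 8.85 and 8.85 in WT arrays, with a difference for BACE2 loss of -0.01 (95% interval -0.19 to 0.17). All groups overlapped. On 1451554_PM_a_at the hIAPP-TgxBACE2-KO arrays, at 6.01, 6.03 and 6.04, lay below all BACE2-KO arrays (6.13, 6.40 and 6.32) and all WT arrays (6.41, 6.10 and 6.09), though not below the hIAPP-Tg array at 5.96. Neither difference passed (-0.26 against BACE2-KO and -0.17 against WT, limma adjusted p = 0.998 and 0.881). Of all probe sets, 9.17% did not overlap against BACE2-KO and 13.2% against WT, in either direction.

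**Figure D2:**
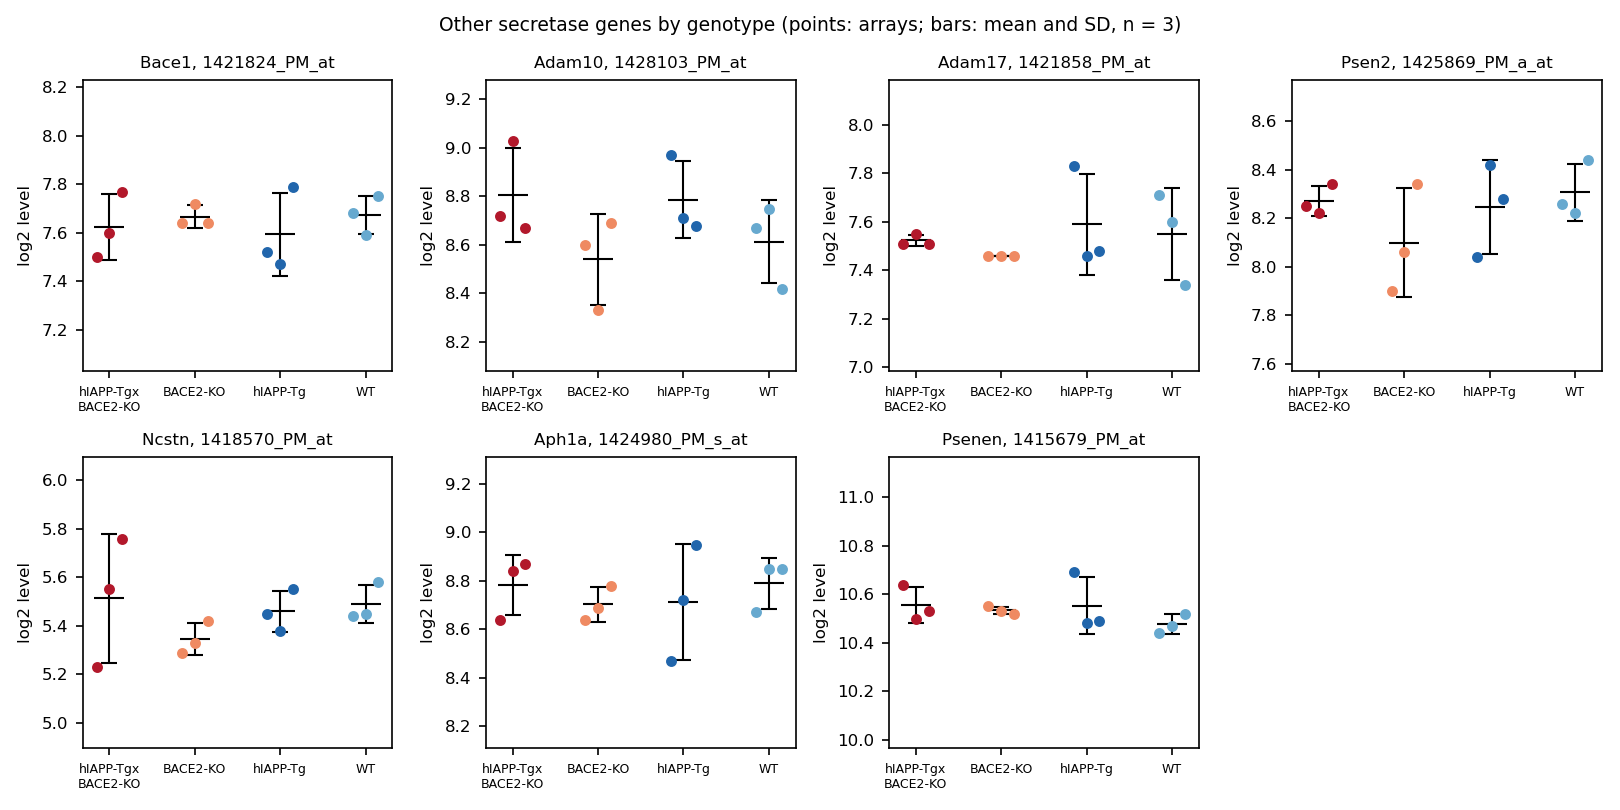
Log2 level (vertical axis, of equal span in each panel) of the brightest probe set of each of the other 7 secretase genes by genotype, with 1 point per array and bars for the mean and SD of 3 arrays. The groups overlap in most pairs, with exceptions such as Ncstn in BACE2-KO against WT (12.2% of all probe sets did not overlap there). Psenen has the smallest spread.

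Counted over the 19 member probe sets, limma called 0 in every comparison. In BACE2-KO against WT 0 were called, where 0.104% of the 33779 probe sets tested were, and 0 had an unadjusted p under 0.05, against 5.91% of all. In hIAPP-TgxBACE2-KO against hIAPP-Tg 0 were called (0.124% of all), and 1, the Bace2 probe set 1442870_PM_at, had an unadjusted p under 0.05 (8.16% of all). For BACE2 loss averaged over transgene status 0 were called (0.684% of all), and 2, both of Bace2, had an unadjusted p under 0.05, which is 10.5% of the members against 10.3% of all. The members' share of small p-values was thus near the background.

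For the transgene, hIAPP-Tg against WT called 0 members (0.0118% of all) with 1 at an unadjusted p under 0.05 (5.18% of all), the dim Bace1 probe set. In hIAPP-TgxBACE2-KO against BACE2-KO 0 were called (0% of all), and 0 had an unadjusted p under 0.05 (4.25% of all). Averaged over BACE2 status 0 were called (0.00592% of all), and 2, of Bace1 and Adam10, had an unadjusted p under 0.05 (6.76% of all). In hIAPP-TgxBACE2-KO against WT 0 were called (0.127% of all) with 2 at an unadjusted p under 0.05 (7.22% of all), and in the interaction 0 were called (0.00592% of all) with 0 at an unadjusted p under 0.05 (3.18% of all).

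Some pairs of groups did not overlap. In hIAPP-TgxBACE2-KO against BACE2-KO 5 of 19 did not overlap, against 9.17% of all probe sets: 2 of Bace2 and 1 of Aph1a were lower, and 1 each of Adam10 and Adam17 were higher. In hIAPP-TgxBACE2-KO against WT 3 did not overlap (13.2% of all), 1 each of Bace2, Bace1 and Aph1a, each lower. In BACE2-KO against WT 1 did not overlap (12.2% of all), in hIAPP-TgxBACE2-KO against hIAPP-Tg 1 (11.2% of all), and in hIAPP-Tg against WT 0 (9.51% of all). With 6 against 6 arrays 0 members separated by BACE2 status (1.15% of all) and 0 by the transgene (0.237% of all).

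**Figure D3:**
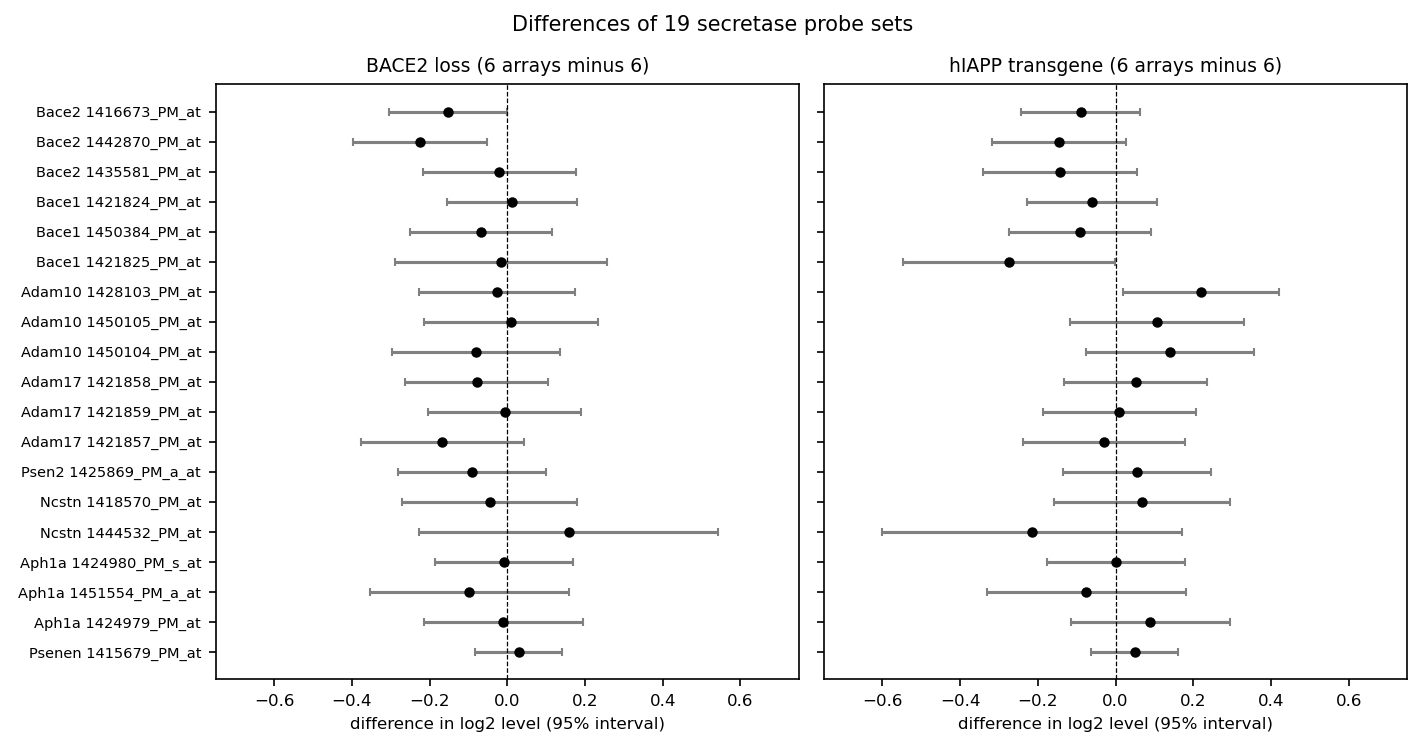
Difference in log2 level (horizontal axis) with its 95% interval for each of the 19 secretase probe sets, for BACE2 loss (left) and for the hIAPP transgene (right), each averaged over the other change. Intervals of 2 Bace2 probe sets lie below 0 on the left, and on the right 1 of Bace1 lies below and 1 of Adam10 above 0, none of which passed the adjusted test.

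The members' levels were set against cell type markers from array to array in 16 relations (the brightest probe set of each gene against the mean of the beta cell and of the acinar markers). Bace1 was the only member to pass by both Pearson and Spearman correlation, and Adam10 and Psen2 passed by Spearman alone. Bace1 was higher in arrays with higher beta cell markers (Pearson r = 0.739, permutation p = 0.00252, adjusted p = 0.0403; Spearman rho = 0.739, permutation p = 0.00737, adjusted p = 0.0393). Its r was 0.777 without hIAPP-Tg replicate 1 and hIAPP-TgxBACE2-KO replicate 1, the arrays farthest from the median of the markers, and 0.739 with genotype means removed. Its adjusted p rose to between 0.0539 and 0.102 without WT replicate 2 or 3, hIAPP-Tg replicate 3, BACE2-KO replicate 1, or hIAPP-TgxBACE2-KO replicate 1 or 2.

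Bace2 had r = 0.557 (permutation p = 0.068, adjusted p = 0.152) and rho = 0.646 (permutation p = 0.0273, adjusted p = 0.109) with the beta cell markers, r = 0.405 without the same 2 arrays, and r = 0.75 with genotype means removed. The beta cell marker means of the arrays lacking BACE2 ran from 9.95 to 10.35 and those of the arrays with BACE2 from 9.64 to 10.39, so they overlapped, and their part in the Bace2 differences was not tested. Adam10 ran against these markers (r = -0.644, permutation p = 0.0267, adjusted p = 0.0854; rho = -0.783, permutation p = 0.00388, adjusted p = 0.0393), with r = -0.628 without those 2 arrays and -0.472 with genotype means removed. The first hIAPP-Tg array, lowest in beta cell markers, was also among the highest in Adam10. Psen2 ran against the acinar markers (r = -0.716, permutation p = 0.00894, adjusted p = 0.0524; rho = -0.768, permutation p = 0.005, adjusted p = 0.0393), with r = -0.831 without WT replicates 1 and 3 and -0.76 with genotype means removed. For Psenen (r = -0.766, permutation p = 0.00983, adjusted p = 0.0524; rho = -0.257, permutation p = 0.417, adjusted p = 0.556) the relation to beta cell markers rested on the same 2 arrays, since r was 0.234 without them. The same held for Aph1a (r = 0.665, permutation p = 0.0182, adjusted p = 0.0728, and rho = 0.366, permutation p = 0.236, adjusted p = 0.42), with r = 0.028 without them, and for Adam17 (r = -0.634, permutation p = 0.0354, adjusted p = 0.0944, and rho = -0.582, permutation p = 0.0502, adjusted p = 0.161), with r = -0.167. With genotype means removed and all 12 arrays kept, r was -0.811 for Psenen, 0.872 for Aph1a and -0.663 for Adam17.

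**Figure D4:**
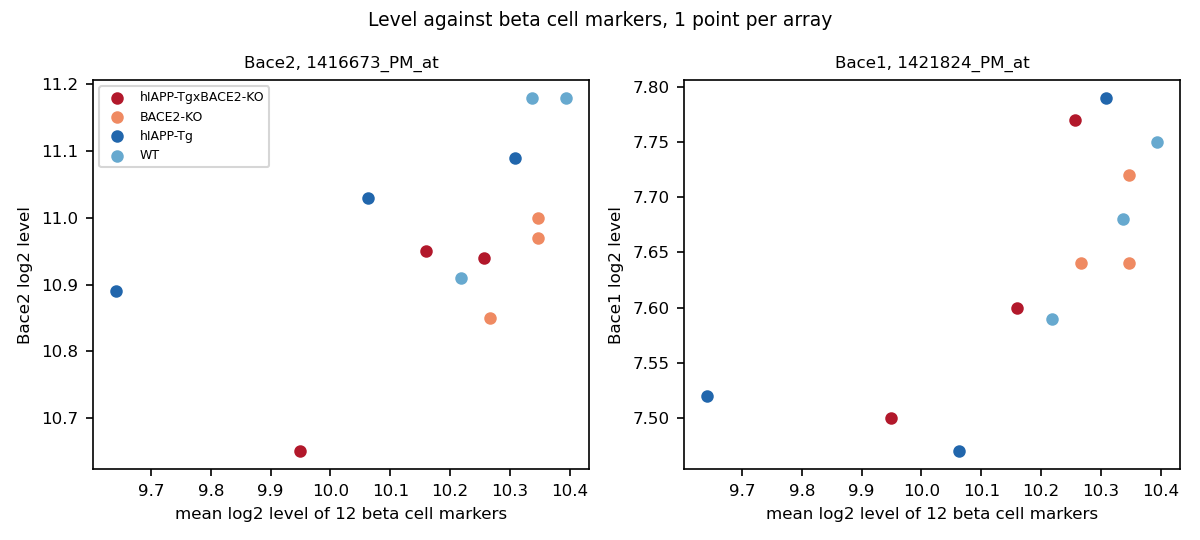
Log2 level of Bace2 on 1416673_PM_at (left) and Bace1 on 1421824_PM_at (right) on the vertical axes against the mean log2 level of 12 beta cell markers (horizontal axis), 1 point per array, coloured by genotype. Points rise from left to right more evenly for Bace1 (r = 0.739) than for Bace2 (r = 0.557).

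As a description over the 12 arrays, the 5 of 13767 other genes whose levels were most like those of Bace2 on 1416673_PM_at were Elp4 (r = 0.937), an Elongator subunit gene, Dennd1a (r = 0.936), an endosomal trafficking gene, Crocc (r = 0.925), which encodes the ciliary rootlet protein, C2cd3 (r = 0.919), a centriole gene, and Meis2 (r = 0.919), a homeobox gene. They were picked for this likeness, so no p is given, and rho ran from 0.783 to 0.912.

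The wider secretase pathway was read from 6 lists, with 83 genes tested, 6 of them members. The lists covered gamma-secretase core and assembly, ADAM and related genes, and regulators of ADAM10 and ADAM17. They also covered other aspartyl proteases, BACE trafficking and reticulon genes, and substrates with related proteins. For BACE2 loss averaged over transgene status 1 was called, Adam22, which was lower (1.2%, against 0.684% of all probe sets), and 11 had an unadjusted p under 0.05 (13.3%, against 10.3% of all). In hIAPP-TgxBACE2-KO against WT 1 was called, Chl1, which was higher (1.2%, against 0.127% of all probe sets). There 10 of the 83 had an unadjusted p under 0.05 (12%, against 7.22% of all). The other 6 comparisons called 0 of the 83 by limma, with between 0 and 9 at an unadjusted p under 0.05. These were 9 in hIAPP-TgxBACE2-KO against hIAPP-Tg (8.16% of all probe sets) and 6 in BACE2-KO against WT (5.91% of all). They were 8 in hIAPP-TgxBACE2-KO against BACE2-KO (4.25% of all), 8 for the transgene averaged (6.76% of all) and 4 in the interaction (3.18% of all). In these 5 comparisons the share of the 83 was above that of all probe sets. In hIAPP-Tg against WT it was below, with 0 of the 83 (5.18% of all). The lists were chosen with earlier results of these data known and take the brightest probe set of each gene. All these shares are therefore a description and not a test of the lists.

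Adam22 encodes a membrane protein of the ADAM family without protease activity, known in neurons as a receptor of the secreted protein LGI1. It had log2 levels of 8.06, 7.86 and 7.90 in hIAPP-TgxBACE2-KO, 8.19, 8.17 and 8.01 in BACE2-KO, 8.80, 8.50 and 8.52 in hIAPP-Tg, and 8.85, 8.62 and 8.31 in WT arrays. All 6 arrays lacking BACE2 lay below all 6 with BACE2, which held for 1.15% of all probe sets in either direction. Adam22 fell by 0.57 (SE 0.09, limma adjusted p = 0.0129) with BACE2 loss, and the call held in all 22 alternatives (adjusted p from 0.00156 to 0.0418). In the separate comparisons it differed by -0.67 in hIAPP-TgxBACE2-KO against hIAPP-Tg and by -0.47 in BACE2-KO against WT (limma adjusted p = 0.086 and 0.413). Its dimmer probe set, 1451812_PM_at, differed by -0.22 (SE 0.16, limma adjusted p = 0.707).

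Chl1, which encodes a neural cell adhesion molecule known as a BACE1 substrate, had log2 levels of 6.08, 5.64 and 5.77 in hIAPP-TgxBACE2-KO, 4.18, 4.70 and 4.57 in BACE2-KO, 5.14, 4.10 and 3.99 in hIAPP-Tg, and 3.91, 4.65 and 4.0 in WT arrays. All arrays carrying both changes lay above the other 9, a separation whose share over all probe sets was not counted. Chl1 rose by 1.64 (SE 0.29, limma adjusted p = 0.0442) in hIAPP-TgxBACE2-KO against WT, but the call was lost in 15 of 23 alternatives (adjusted p up to 0.307), among them those that left out any array other than hIAPP-Tg replicates 1 and 3. Over these 12 the difference ran from 1.51 to 1.88. These values are those of 1435190_PM_at, the brightest Chl1 probe set. Its second tested probe set, 1447036_PM_at, near the filter level with a mean of 3.34, differed by -0.21. For the Chl1 probe sets 1417795_PM_at and 1443713_PM_at no difference is given here. The interaction of Chl1 was 1.12 (SE 0.40, limma adjusted p = 0.999), and neural and Schwann cell markers, of which 4 of 7 were measured, had means between 3.62 and 3.90 in hIAPP-TgxBACE2-KO arrays and between 3.61 and 4.04 in the others. The part of other cell types in the Chl1 difference was not tested.

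**Figure D5:**
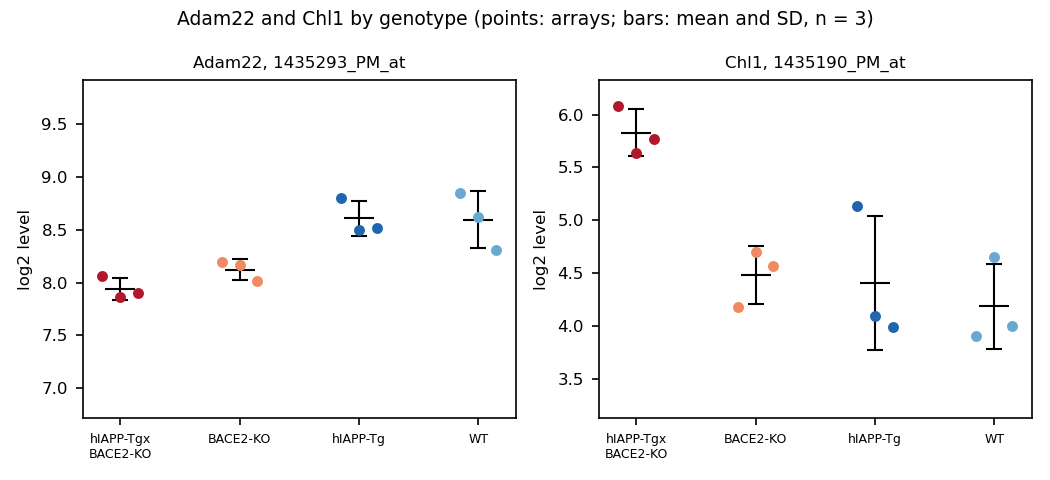
Log2 level (vertical axis, of equal span in each panel) of Adam22 on 1435293_PM_at and Chl1 on 1435190_PM_at by genotype, with 1 point per array and bars for the mean and SD of 3 arrays. Adam22 lies at 8.19 or below in all arrays lacking BACE2 and at 8.31 or above in all arrays with BACE2, and Chl1 lies at 5.64 or above only in hIAPP-TgxBACE2-KO arrays.

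The remaining lists held no call for BACE2 loss averaged over transgene status, with list medians from -0.02 to 0.15 against 0.02 over all probe sets. The gamma-secretase list had 5 of 10 higher and a median of 0.01. Aph1c, a rodent paralogue of Aph1b, differed by 0.39 (SE 0.13, limma adjusted p = 0.278) and Aph1b by -0.11 (SE 0.08, limma adjusted p = 0.682), with 0.13 (SE 0.13) on its dimmer probe set. The suffix _s_at of the Aph1c probe set marks one that can match several transcripts, so the signals of near-identical Aph1 genes on it cannot be told apart here.

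In the ADAM list 3 of 10 were higher (median -0.03). Adam15, which encodes metargidin, differed by -0.20 (SE 0.08, limma adjusted p = 0.413) on its brightest probe set. On the other 3 it differed by -0.01, -0.16 and 0.02. Of the regulators of ADAM10 and ADAM17, 7 of 13 were higher (median 0.00), and the tetraspanin genes Tspan33 and Tspan10 differed by -0.24 and -0.20 (limma adjusted p = 0.523 and 0.526). The other 3 Tspan33 probe sets differed by -0.40, -0.37 and -0.26 (limma adjusted p from 0.25 to 0.477). Tspan33 and Tspan10 belong to the tetraspanins that carry ADAM10 to the cell surface.

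Of the other aspartyl proteases 3 of 5 were higher (median 0.15). Ctsd, the lysosomal cathepsin D gene, differed by -0.14 (SE 0.05, limma adjusted p = 0.399) and Asprv1, a skin protease gene near the filter level, by 0.18 (limma adjusted p = 0.504). In the list of BACE trafficking and reticulon genes 9 of 19 were higher (median -0.02). Reticulons bind BACE1, and Rtn1 differed by 0.42 (SE 0.14, limma adjusted p = 0.254) and Rtn4 by -0.14 (SE 0.07, limma adjusted p = 0.532), with -0.16 and -0.14 on its other probe sets.

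In the list of substrates with related proteins 15 of 26 were higher (median 0.02). Scn2b, a sodium channel subunit gene whose protein is a known BACE1 substrate, had log2 levels of 4.45, 4.64 and 4.76 in hIAPP-TgxBACE2-KO, 4.90, 4.43 and 4.57 in BACE2-KO, 4.26, 3.99 and 4.01 in hIAPP-Tg, and 4.22, 4.11 and 4.41 in WT arrays. All 6 arrays lacking BACE2 lay above all 6 with BACE2 (1.15% of all probe sets separated in either direction). The difference of 0.46 (SE 0.11) did not pass (limma adjusted p = 0.0994), its other 2 probe sets differed by -0.02 and 0.07, and Chl1 differed by 0.86 (SE 0.20, limma adjusted p = 0.082) for BACE2 loss.

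For the transgene averaged over BACE2 status limma called 0 of the 83, and 8 had an unadjusted p under 0.05 (9.64%, against 6.76% of all). In the ADAM list 8 of 10 were higher, with a median of 0.11 against -0.02 over all probe sets, and in the gamma-secretase list 8 of 10 (median 0.04). Over all probe sets 42.5% were higher. The array hIAPP-TgxBACE2-KO replicate 2 was the highest for Adam8 (6.36), Adam10 (9.03), Adam12 (5.34) and Adam19 (5.46). It was also highest in duct (6.77), stellate (6.05) and myeloid (7.19) marker means, whose part was not tested. In hIAPP-Tg against WT 8 of 10 of the ADAM list were higher (median 0.13). Over all probe sets 41.3% were higher there (median -0.03), and 0 of the 10 had an unadjusted p under 0.05. That comparison holds hIAPP-Tg replicate 1, the array lowest in beta cell markers (9.64). The part of single arrays in these medians was not tested. The members of each list with the smallest p, besides Adam10 and Chl1 (0.79), were Tspan5 (-0.24, SE 0.08), Rtn3 (-0.13, SE 0.05), the pepsinogen gene Pgc near the filter level (-0.17, SE 0.08), and the retention receptor gene Rer1 (0.08, SE 0.06), with limma adjusted p from 0.72 to 0.807. The other probe sets of Tspan5, Rtn3 and Rer1 differed by -0.18, 0.00 and 0.03.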

How the data were processed

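Transcript levels were measured on Affymetrix mouse arrays in islets of 4 genotypes, with 3 arrays each and 12 in all. The deposited values are log2 levels. Per the submitters' processing notes the authors used RMA, which corrects for background, normalizes across arrays and sums up the probes of a set, with the R package affy. No version or genome build is named in the sources used here. Array medians ran from 4.22 to 4.35, and at most 2.22% of values were equal between any pair of arrays. Precision is limited by the number of arrays.

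Gene symbols came from the platform annotation, in which 28898 of the 45141 probe sets have 1 gene symbol, 551 have several and 15692, including 104 control sets, are not listed. After removal of control sets and of sets whose mean over the arrays fell below the 25th percentile, a log2 level of 3.29, the remaining 33779 probe sets were tested on their own. A mean per genotype was fitted to all 12 arrays in R 4.3.3 by limma 3.58.1 (lmFit and trended eBayes). Tests were two-sided, and a call is a Benjamini-Hochberg adjusted p under 0.05 over all probe sets tested. The limma fit was tested on simulated data with independent noise and planted changes larger than the Bace2 differences for BACE2 loss. That test therefore does not show whether changes of the Bace2 size would be called. Bace2 was also tested with an exact permutation of BACE2 status within each transgene status (400 arrangements, two-sided), and correlations with 100000 permutations (scipy 1.17.1).

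Alternatives tried were no filter or a stricter one, a single probe set for each gene, quantile normalization or median centring on top of RMA, eBayes without trend, a block for replicate number, the acinar marker mean as covariate, array weights, fits restricted to the pair of groups, a threshold of 0.10, and leaving out every array once. The genes named beside the members follow a rule: genes called in a comparison, and per list those with the smallest p, up to 2 for BACE2 loss and 1 for the transgene. The members and lists were chosen with earlier results of these data known.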

Additional observations from a re-analysis of the deposited data

How the results depend on the processing

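No secretase probe set was called in any comparison under any alternative (0 in each). Bace2 on 1416673_PM_at, averaged over transgene status, stayed lower without BACE2 in all 22 alternatives, between -0.20 and -0.10 (adjusted p from 0.358 to 0.709), also with the replicate block. The Bace2 probe set 1435581_PM_at had no stable direction: leaving out 1 array in turn moved it between -0.11 and 0.11 in BACE2-KO against WT and between -0.094 and 0.018 for BACE2 loss averaged, and it turned without WT replicate 2 (-0.11) in the first, and without WT replicates 1 (0.018) and 3 (0.016) and hIAPP-Tg replicates 2 (0.013) and 3 (0.0025) in the second. The unequal change of 1442870_PM_at and 1435581_PM_at ran from -0.23 to -0.17 (adjusted p from 0.03 to 0.06). The relation of Bace1 to beta cell markers had r from 0.696 to 0.817 with 1 array left out in turn. That of Psen2 to acinar markers ran from -0.844 to -0.644, passing without WT replicate 1 or BACE2-KO replicate 2. Each of the 12 arrays was left out once for these relations, a check that was not planned beforehand. For BACE2 loss averaged, the Rtn1 difference passed in 1 alternative, the replicate block (adjusted p = 0.0413), that of Scn2b in 2, array weights and the looser threshold, and that of Chl1 in 3, these and the fit without hIAPP-Tg replicate 1. The background moved: calls for BACE2 loss averaged numbered 231, against 401 with the replicate block, 115 with 1 probe set per gene, 402 at the looser threshold and 107 to 201 with an array left out. They numbered 35 (13 to 62) in BACE2-KO against WT, 42 (13 to 85) in hIAPP-TgxBACE2-KO against hIAPP-Tg, 43 (11 to 71) in hIAPP-TgxBACE2-KO against WT, 4 (2 to 9) in hIAPP-Tg against WT, 0 (0 to 1) in hIAPP-TgxBACE2-KO against BACE2-KO, 2 (1 to 4) for the transgene averaged and 2 (1 to 5) in the interaction. Deviations from the genotype means correlated at over 0.1 in 10 of 18 same-numbered pairs of arrays (median r 0.11), among them all 6 pairs of replicate 1, and in 5 of 36 other pairs (median r -0.06), and 8 of 12 arrays correlated best with an array of their own number. Pairing was to be taken only where every same-numbered pair passed 0.1, so the numbers were not used as pairs, although these values are a hint of shared deviations. The block changed no call of a secretase probe set (0). A fit of only the groups compared is the main one in the averaged comparisons and the interaction. With 3 arrays per genotype, signal near the filter level is not resolved.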
